A study of Mus musculus with 12 samples.

Results

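The chemokines and their receptors were followed in the myocardium of 12 male C57BL/6 wild-type mice. The members are the genes whose symbol is Ccl, Ccr, Cxcl, Cxcr, Cx3cl, Cx3cr, Xcl or Xcr with a number and at most 1 further letter, together with the atypical receptors Ackr1 to Ackr4. This rule gave 61 of the 33641 gene symbols in the deposited table, 20 of them inflammatory ligands, 19 homeostatic or dual ligands, 18 signalling receptors and 4 atypical receptors. The mice formed 4 groups of 3: sham surgery with vehicle, sham surgery with prednisone, myocardial infarction (MI) with vehicle, and MI with prednisone. All carried the wild-type genotype and were about 10 weeks old when treated, and the labels give an age of about 16 weeks. Prednisone, a synthetic glucocorticoid, was injected into the peritoneum at 1 mg/kg once a week at lights-on for 6 weeks, from 2 weeks after surgery, and the heart tissue was collected 24 hours after the last dose. The vehicle is not described beyond that word; the drug itself came from a stock in DMSO and was given in PBS. The labels do not say which region of the myocardium was sampled.

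Chemokines are small secreted proteins that guide the movement of leukocytes along gradients bound to tissue and vessel walls. Most signal through G protein-coupled receptors of the Ccr, Cxcr, Cx3cr and Xcr families, whereas the atypical receptors bind ligands and remove or redistribute them without the usual G protein signal. In the injured heart, ligands of Ccr2 are known for drawing in monocytes, and Cxcl12 for holding and recruiting cells that carry Cxcr4. Glucocorticoids are known to lower the transcription of many inflammatory chemokines.

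Values are TPM (abundance per transcript length, scaled to the same total in each library), so levels of different genes can be set side by side. The number of reads behind a library cannot be read from TPM, and the precision rests on 3 mice a group. Of the 61 members, 33 reached 1 TPM in 3 or more of the 12 libraries and were tested among 13158 genes. Cardiomyocyte markers were abundant in each library, with a summed level of 15108 to 24261 TPM over 7 genes. The 9 T cell markers summed to 672.5 TPM in MI vehicle mouse 3 and to between 1.30 and 35.0 TPM in the other 11 mice. In that same library 6 markers of thymus and lymphoid tissue reached 255 TPM, against 0.129 to 12.4 TPM elsewhere. Markers of lung epithelium, a list of 9 genes added after the data were seen, reached 7155 TPM in MI vehicle mouse 3, 10406 TPM in MI prednisone mouse 2 and 1514 TPM in MI prednisone mouse 3, against at most 410.0 TPM in the other 9 mice. The 5 atrial muscle markers summed to 2813 to 4122 TPM in MI vehicle mice and 4358 to 6191 TPM in MI prednisone mice. For 1 of them, Myl7, the values were 409, 64.0 and 450 TPM against 1036, 1015 and 793 TPM. The 6 adipocyte markers summed to 39.3 to 1540 TPM within MI vehicle mice and 303 to 973 TPM in MI prednisone mice. The part of such tissue in the chemokine values was not tested. MI vehicle mouse 3 was the highest library for 38 of the 61 members, and results are therefore also given without it. In whole tissue, fewer cells of a type and less RNA per cell cannot be told apart.

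Summed over the 61 members, the level was 224, 257 and 195 TPM in sham vehicle mice, 228, 211 and 251 TPM in sham prednisone mice, 457, 446 and 1049 TPM in MI vehicle mice, and 372, 347 and 215 TPM in MI prednisone mice. All 3 MI vehicle mice lay above all other mice. A mean of at least 5 TPM over the 12 mice was reached by 15 members. Ccl21a (85.0 TPM on average) and Cxcl12 (39.3 TPM), both made in the resting heart, led the order. In sham mice their ranges, 32.2 to 48.9 TPM and 32.3 to 37.3 TPM, overlapped, and Ccl21a was the higher in 5 of 6 sham mice.

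Infarction in vehicle-treated mice went with higher chemokine levels across all 4 role groups. With limma on log2(TPM + 1) and Benjamini-Hochberg adjustment over all genes (called at an adjusted p under 0.05), 14 of 33 members were higher in MI vehicle than in sham vehicle mice and 0 were lower. That is 42.4% of the members tested, against 16.0% of all genes called in either direction, 15.1% called higher and 0.904% called lower. The median log2 change was 1.11 over the members and 0.39 over all genes, and 32 of the 33 members had a positive value. The ranges of both groups did not overlap, with MI higher, for 17 members, against 40.8% of all genes. The 14 were 5 inflammatory ligands (Ccl8, Ccl6, Ccl9, Ccl12, Cxcl10), 3 homeostatic or dual ligands (Ccl21a, Cx3cl1, Cxcl16), 4 signalling receptors (Cx3cr1, Ccr2 and Ccr1 among them) and 2 atypical receptors (Ackr2, Ackr4). Rescaling the libraries by the median ratio, which moved the all-gene median from 0.39 to 0.02 and the split of all calls from 1981 higher and 119 lower to 490 and 489, left 8 members called, all higher, against 7.44% of all genes, and a correction for transcript length left 5, against 5.31%. Without MI vehicle mouse 3, 9 members were called against 7.34% of all genes, 8 of them among the 14, and none of the 4 signalling receptors was; without sham vehicle mouse 1 the number was 1, against 1.28% of all genes, and without sham vehicle mouse 3 it was 0, against 0.912%.

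Under prednisone the infarcted hearts had lower chemokine levels than under vehicle, in a proportion close to that of genes at large. Of 33 members, 13 were lower in MI prednisone than in MI vehicle mice and 0 were higher, which is 39.4% of members against 37.4% of all genes called in either direction, 34.9% called lower and 2.50% called higher. The median log2 change was -0.83 over the members and -0.41 over all genes. Ranges did not overlap, with prednisone lower, for 13 members, against 42.6% of all genes. The 13 included Ccl9, Ccl12, Cxcl10, Ccl7, Ccl6, Ccl21a, Cx3cl1, Cxcl12, Ccr2, Ccr1, Ackr4 and Ackr2. After median-ratio rescaling, which moved the all-gene median from -0.41 to -0.02 and the split of all calls from 329 higher and 4588 lower to 1917 and 1870, 4 members were lower (Ackr2, Ccl9, Ccr1, Cxcl10) and 2 were higher (Ccl27a and Ackr3), against 28.8% of all genes called; after length correction 3 were lower (Ccl21a, Ccl9, Cxcl10) and Ackr3 higher, against 16.4%. Without MI vehicle mouse 3, 7 remained of the 13, against 31.6% of all genes. This comparison shares the MI vehicle mice with the one before, so that a high library there enters both with opposite sign.

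Within prednisone-treated mice, MI against sham gave 2 members higher, Ccl12 and Ccl8, and 0 lower, which is 6.06% of members against 16.8% of all genes, with 2.73% called higher and 14.1% called lower. In sham mice, prednisone against vehicle gave 0 members by limma, against 0.114% of all genes; 2 members (Ccl12, lower, and Ackr3, higher) and 469 of 13158 genes had an unadjusted p under 0.05. The difference between the prednisone effects in MI and in sham hearts was called for 3 members, all negative (Ackr2, Ccl9 and Ccr1), which is 9.09% of members against 21.3% of all genes, with 20.7% negative.

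**Figure D1:**
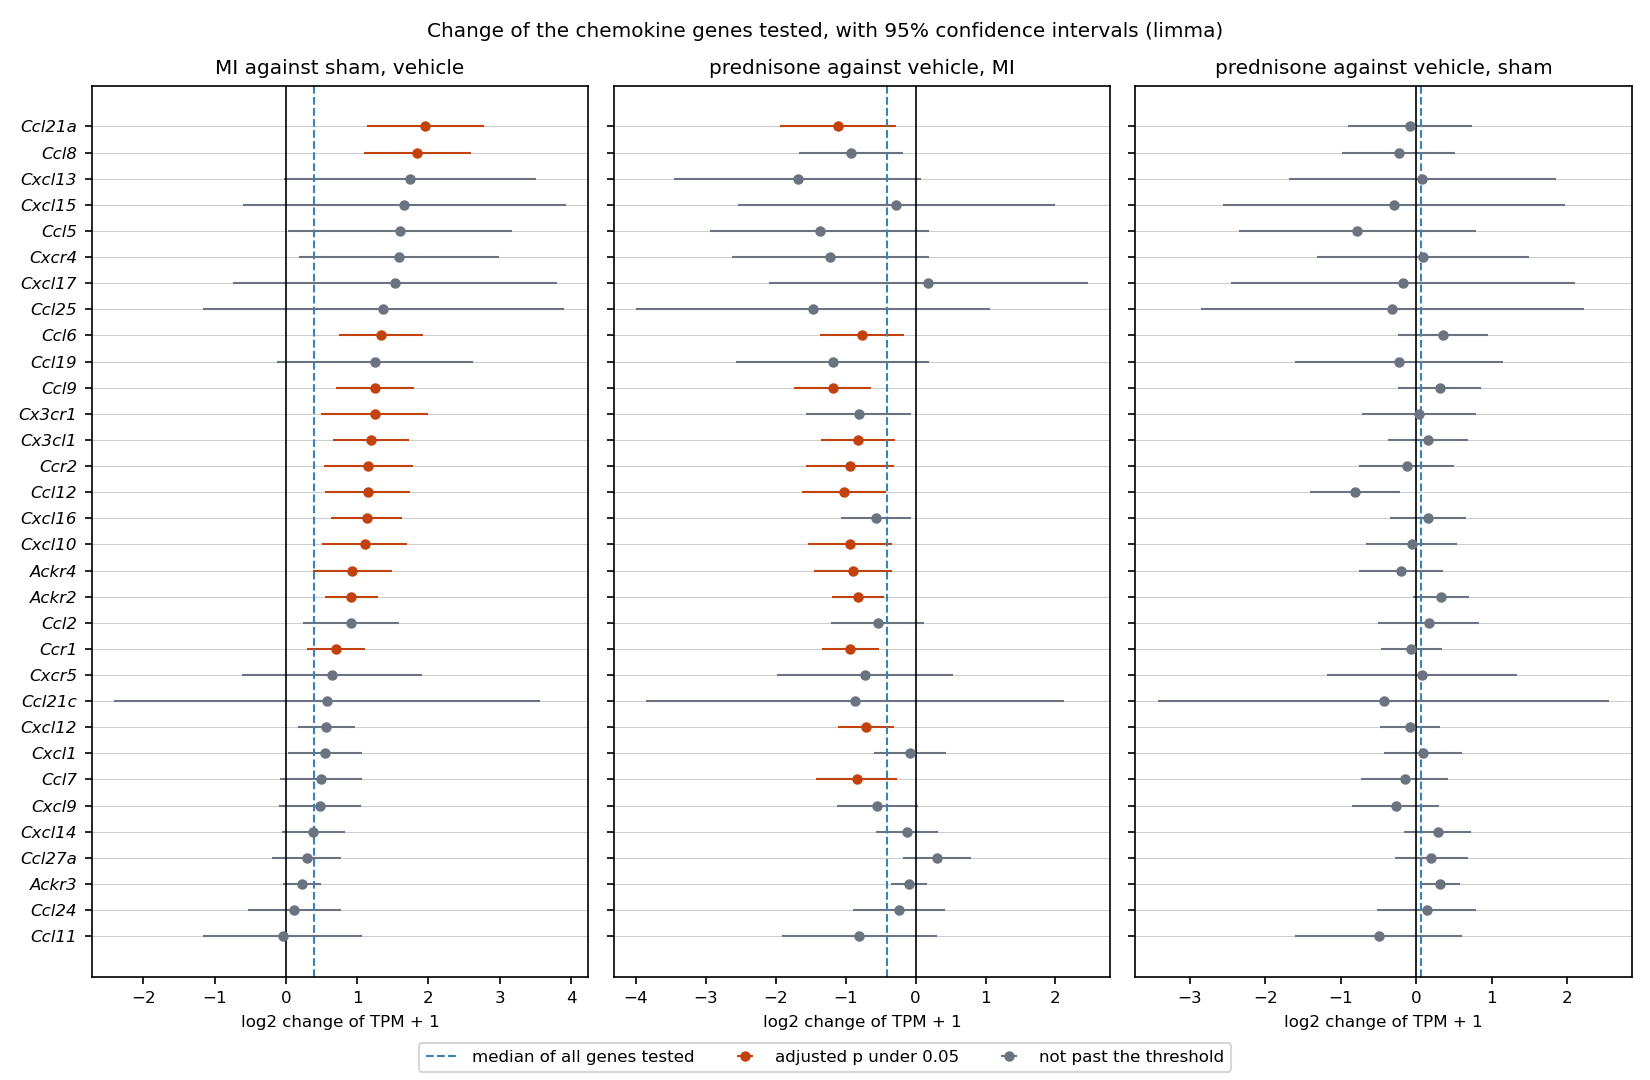
Log2 change of TPM + 1 with its 95% confidence interval for 32 of the 33 tested members in 3 comparisons; orange points had an adjusted p under 0.05 (limma), gray points did not, and the dashed line is the median of all genes tested. The points of the left panel lie mostly to the right of the all-gene median of 0.39, those of the middle panel mostly to the left of -0.41, and none is orange in the sham panel.

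Among inflammatory ligands, 13 of 20 were tested, with 5 higher in MI vehicle mice and 5 lower under prednisone after MI. Of all genes, 15.1% were called higher and 34.9% lower in these comparisons, so the share lower was close to that of genes at large. Ccl8, a monocyte chemoattractant, was at 8.99, 4.90 and 6.17 TPM in sham vehicle mice, 7.84, 3.32 and 5.82 in sham prednisone mice, 24.0, 23.7 and 30.6 in MI vehicle mice and 19.4, 15.7 and 7.43 in MI prednisone mice. Every MI vehicle mouse was at least 23.7 TPM and no sham mouse was above 8.99 TPM, while the MI prednisone mice fell between, with mouse 3 inside the sham range. Ccl8 rose after MI with vehicle by a log2 change of 1.85 (SE 0.34, adjusted p = 0.0114) and after MI with prednisone by 1.15 (SE 0.34, adjusted p = 0.0405), and the difference of -0.92 between the MI groups missed the threshold with an adjusted p of 0.0529 in limma. The 2 Ccl8 calls were lost in 4 and in 11 of 25 alternatives. Ccl9, which signals through Ccr1 and is made by myeloid cells, was at 7.61, 12.8 and 7.04 TPM in sham vehicle mice, 9.48, 11.5 and 13.1 in sham prednisone mice, 17.3, 26.6 and 24.4 in MI vehicle mice and 10.1, 11.7 and 6.76 in MI prednisone mice. All MI vehicle mice lay above every other mouse, and the MI prednisone mice lay among the sham mice or just below them. The log2 change of Ccl9 was 1.25 (SE 0.25, adjusted p = 0.0145, limma) for MI against sham with vehicle and -1.18 (SE 0.25, adjusted p = 0.00515) for prednisone against vehicle after MI. These values sum 2 transcripts. Ccl9-202, annotated without a coding sequence, held on average 62.9% of Ccl9 TPM in sham vehicle, 62.9% in sham prednisone, 65.2% in MI vehicle and 53.0% in MI prednisone mice. Its fall with prednisone after MI was called in all 21 transcript alternatives, and that of protein-coding Ccl9-201 in 12 of 21. The Ccl9 difference after MI stayed past the threshold in 24 of 25 alternative analyses, with log2 changes from -1.40 to -0.75, and lost it where 3 MI libraries were left out, which leaves 1 MI prednisone mouse.

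Ccl6, a close relative of Ccl9 made by myeloid cells, was at 21.9, 19.2 and 15.9 TPM in sham vehicle mice, 25.0, 22.4 and 26.0 in sham prednisone mice, 45.9, 38.5 and 66.7 in MI vehicle mice and 39.2, 33.0 and 17.6 in MI prednisone mice. MI vehicle mice lay above all sham mice, and MI prednisone mouse 1 reached into the MI vehicle range. Its log2 change was 1.34 (SE 0.27, adjusted p = 0.0149) with MI under vehicle and -0.77 (SE 0.27, adjusted p = 0.0447) with prednisone after MI. The latter Ccl6 call was lost in 21 of 25 alternatives, with log2 changes from -0.99 to -0.10. Of Ccl6 TPM, the retained-intron transcript Ccl6-202 held on average 50.3% in sham vehicle, 52.8% in sham prednisone, 43.6% in MI vehicle and 62.1% in MI prednisone mice. The fall of protein-coding Ccl6-201 with prednisone after MI was called in all 21 transcript alternatives, from -1.50 to -0.91. Ccl12, a ligand of Ccr2, was at 3.15, 1.74 and 3.44 TPM in sham vehicle mice, 1.22, 1.26 and 0.862 in sham prednisone mice, 6.23, 9.53 and 6.23 in MI vehicle mice and 3.88, 1.69 and 3.98 in MI prednisone mice. Prednisone mice lay below vehicle mice without overlap in both sham and MI hearts, and MI mice above sham mice within each treatment. Ccl12 rose with MI under vehicle (1.15, adjusted p = 0.0236, limma) and under prednisone (0.94, adjusted p = 0.0383) and fell with prednisone after MI (-1.02, adjusted p = 0.0142). Over 25 alternatives these Ccl12 calls were lost in 11, 11 and 8, in that order. In sham hearts the Ccl12 change was -0.81 (95% confidence interval -1.41 to -0.21) with an adjusted p of 1, and the difference between the prednisone effects was -0.21 (95% confidence interval -1.06 to 0.63).

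Ccl7 and Ccl2 are the other main Ccr2 ligands. Ccl7 was at 2.92, 3.15 and 2.61 TPM in sham vehicle mice, 1.82, 3.19 and 2.64 in sham prednisone mice, 4.61, 6.04 and 3.09 in MI vehicle mice and 3.22, 2.06 and 1.19 in MI prednisone mice. Only MI vehicle mice 1 and 2 stood above the rest, and the change called was that with prednisone after MI, -0.84 (SE 0.26, adjusted p = 0.0283). That Ccl7 call was lost in 9 of 25 alternatives. Ccl2 had group means of 2.16 TPM in sham vehicle mice, 2.54 in sham prednisone mice, 5.32 in MI vehicle mice and 3.07 in MI prednisone mice, with 8.90 TPM in MI vehicle mouse 2, and its log2 change of 0.91 with MI under vehicle had an adjusted p of 0.0605 (limma). Cxcl10, an interferon-inducible ligand of Cxcr3, was at 0.844, 1.09 and 0.289 TPM in sham vehicle mice, 0.704, 0.335 and 0.939 in sham prednisone mice, 1.69, 2.53 and 4.20 in MI vehicle mice and 1.20, 0.944 and 0.646 in MI prednisone mice. Only MI vehicle mice exceeded 1.20 TPM. Cxcl10 rose with MI under vehicle by 1.10 and fell with prednisone after MI by 0.94 on the log2 scale (adjusted p = 0.0267 and 0.0214, limma), and both calls were lost without MI vehicle mouse 3.

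Ccl5, a T cell-associated ligand, was at 2.82, 4.44 and 1.73 TPM in sham vehicle mice, 2.32, 0.52 and 1.22 in sham prednisone mice, 4.46, 4.48 and 51.7 in MI vehicle mice and 3.53, 2.80 and 4.27 in MI prednisone mice. The MI vehicle mean rests on mouse 3, and its log2 change of 1.60 had an adjusted p of 0.114 in limma. The remaining tested inflammatory ligands passed no comparison: the log2 change with MI under vehicle was 0.54 for Cxcl1 (a neutrophil attractant), 0.48 for Cxcl9 (a further Cxcr3 ligand), 0.12 for Ccl24 and -0.05 for Ccl11 (both eosinophil attractants). Cxcl15, known as lungkine for its expression in lung epithelium, was at 26.9 TPM in MI vehicle mouse 3, 7.25 in MI prednisone mouse 2, 3.09 in MI prednisone mouse 3 and 1.18 in MI vehicle mouse 1, and at most 0.46 TPM in the other 8 mice. Those 4 mice also had the 4 highest lung marker sums; the part of other tissue in this result was not tested.

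**Figure D2:**
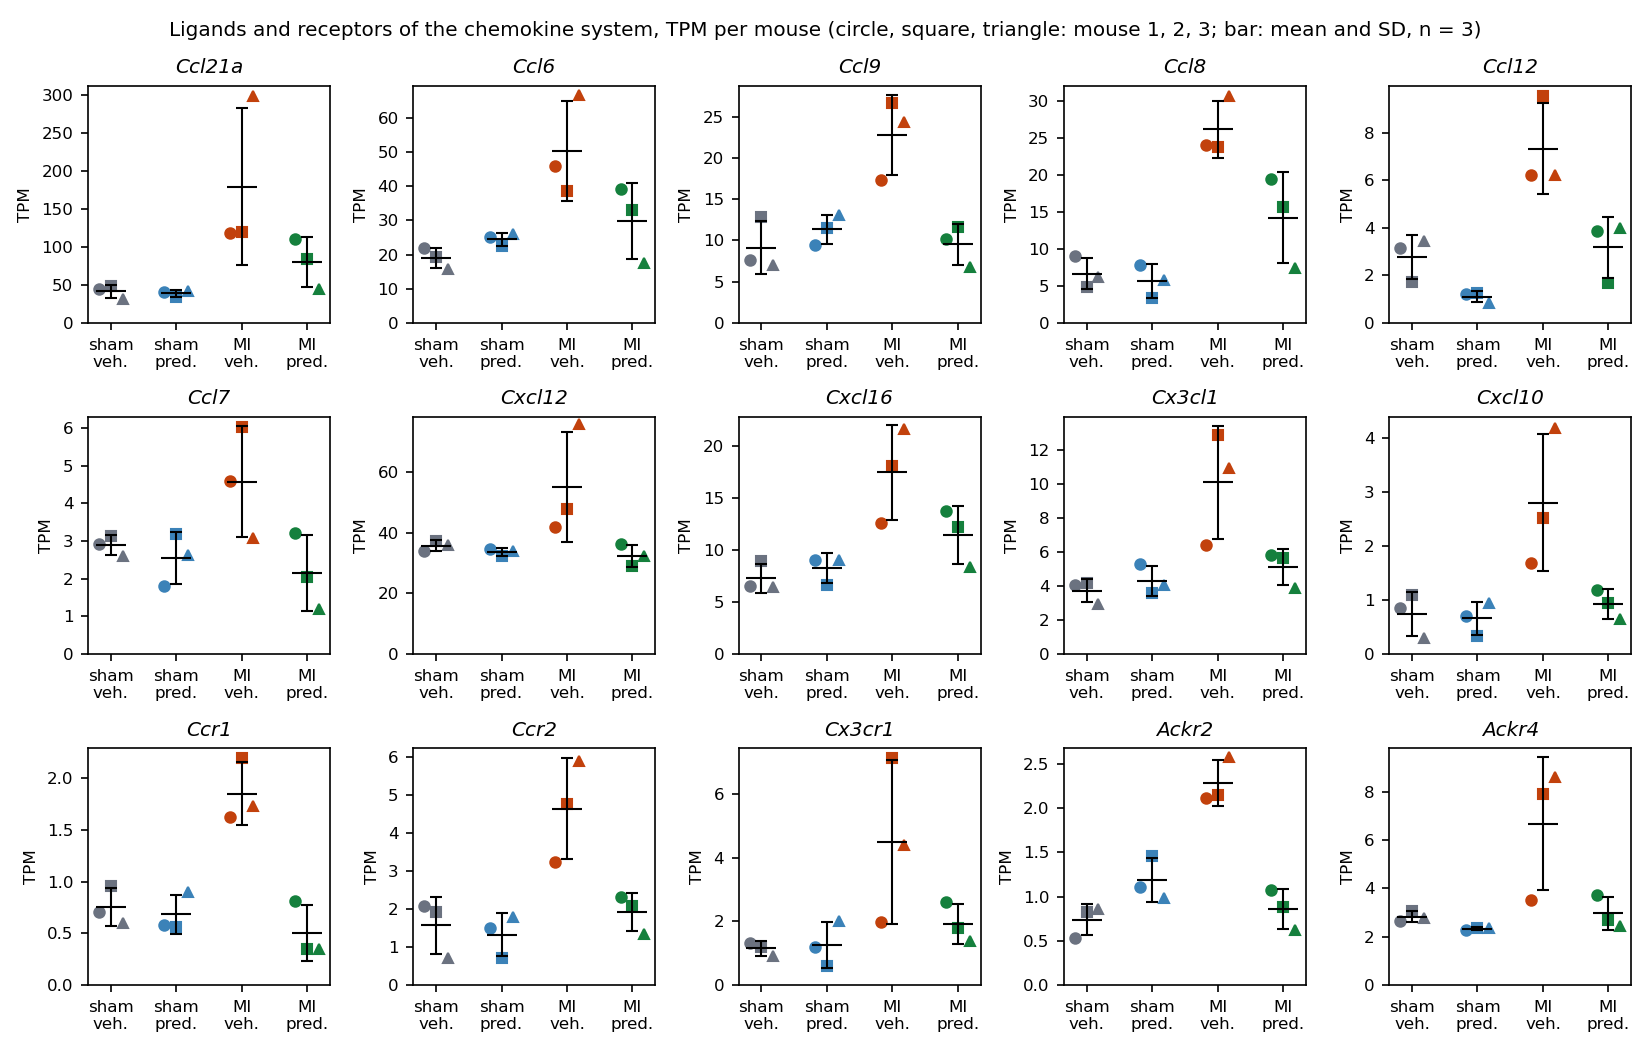
TPM per mouse for 15 members, 13 of those called higher in MI vehicle than in sham vehicle mice together with Ccl7 and Cxcl12; circles, squares and triangles are mice 1, 2 and 3 of a group and bars give the mean and SD (n = 3). MI vehicle mice stand highest in most panels, and for Ccl9, Ccr1 and Ackr2 the MI prednisone mice return to the range of sham mice or below it.

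Of the 19 homeostatic or dual ligands, 11 were tested, with 3 higher in MI vehicle mice and 3 lower under prednisone after MI. The share called lower was below the 34.9% of all genes, while 15.1% of all genes were called higher with MI under vehicle. Ccl21a, the Ccr7 ligand that lymphatic endothelium presents to dendritic cells and T cells, was at 44.3, 48.9 and 32.2 TPM in sham vehicle mice, 41.3, 33.9 and 42.4 in sham prednisone mice, 119, 120.3 and 299 in MI vehicle mice and 110.0, 84.7 and 44.7 in MI prednisone mice. The MI vehicle mice were each above all sham mice, with mouse 3 at more than any other mouse, and the MI prednisone mice spread from the sham range up to just under the MI vehicle range. The log2 change of Ccl21a was 1.95 (SE 0.37, adjusted p = 0.0127) with MI under vehicle, 0.92 (SE 0.37, adjusted p = 0.121) with MI under prednisone and -1.11 (SE 0.37, adjusted p = 0.0379) with prednisone after MI. The first held under rescaling, under length correction and without MI vehicle mouse 3, whereas the last was lost under rescaling and in 14 further alternatives of 25. Lymphatic endothelium markers, which are 6 genes, summed to 25.1 to 39.2 TPM in sham mice, 54.3 to 81.0 TPM in MI vehicle mice and 21.6 to 27.6 TPM in MI prednisone mice. Of the 6, 4 were called higher with MI under vehicle, beside 15.1% of all genes. With prednisone after MI 5 were called lower, beside 34.9% of all genes. Lyve1, a hyaluronan receptor also found on some macrophages, was at 7.43 to 8.32 TPM in sham vehicle mice and 17.3 to 35.7 TPM in MI vehicle mice. In the same groups Flt4 was at 2.51 to 3.17 and 6.03 to 8.02 TPM, and Mmrn1 at 2.01 to 2.96 and 6.76 to 7.57 TPM. Prox1, the transcription factor of lymphatic identity, did not rise, at 7.52 to 9.47 TPM and 6.78 to 8.49 TPM. The part of lymphatic cell number in the Ccl21a values was not tested.

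Cx3cl1, the membrane-bound ligand of Cx3cr1 on endothelium, was at 4.06, 4.20 and 2.93 TPM in sham vehicle mice, 5.27, 3.56 and 4.04 in sham prednisone mice, 6.41, 12.9 and 10.9 in MI vehicle mice and 5.84, 5.62 and 3.86 in MI prednisone mice. MI vehicle mice lay above all other mice. Cx3cl1 rose with MI under vehicle by 1.19 and its change with prednisone after MI was -0.83 (adjusted p = 0.0149 and 0.0215, limma). These Cx3cl1 calls were lost in 7 and in 10 of 25 alternatives. Cxcl16, a scavenger receptor and ligand of Cxcr6, was at 6.49, 8.89 and 6.47 TPM in sham vehicle mice, 9.05, 6.58 and 9.07 in sham prednisone mice, 12.6, 18.1 and 21.6 in MI vehicle mice and 13.8, 12.2 and 8.36 in MI prednisone mice. MI prednisone mouse 1 lay in the MI vehicle range and mouse 3 in the sham range. The log2 change of Cxcl16 was 1.14 (SE 0.23, adjusted p = 0.0146, limma) with MI under vehicle and -0.56 (SE 0.23, adjusted p = 0.0709) with prednisone after MI. Of Cxcl16 TPM, Cxcl16-202, annotated for nonsense-mediated decay, held on average 43.3% in sham vehicle, 51.4% in sham prednisone, 52.6% in MI vehicle and 63.8% in MI prednisone mice. Protein-coding Cxcl16-201 was called lower with prednisone after MI, and in 15 of 21 transcript alternatives.

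Cxcl12, the ligand of Cxcr4 and Ackr3, was at 33.9, 37.3 and 36.0 TPM in sham vehicle mice, 34.8, 32.3 and 34.1 in sham prednisone mice, 41.9, 47.9 and 75.8 in MI vehicle mice and 36.2, 28.9 and 32.2 in MI prednisone mice. Sham mice varied by little, the MI vehicle mice were above all others, and the MI prednisone mice lay in or under the sham range. Summed over its transcripts, Cxcl12 fell with prednisone after MI by 0.71 on the log2 scale (adjusted p = 0.012, limma), while the change of 0.57 with MI under vehicle missed the threshold (adjusted p = 0.0542). The Cxcl12 call was lost in 7 of 25 alternatives. Cxcl13, a B cell attractant, was at 4.59, 3.86 and 0.763 TPM in sham vehicle mice, 6.44, 1.79 and 1.74 in sham prednisone mice, 17.4, 1.92 and 32.3 in MI vehicle mice and 4.20, 3.78 and 1.17 in MI prednisone mice. The MI vehicle group held both the highest value and one of the lower ones, and no comparison was called. Cxcl14, expressed in many epithelia and stromal cells, was at 10.8, 10.1 and 11.6 TPM in sham vehicle mice, 12.8, 11.7 and 16.0 in sham prednisone mice, 15.2, 18.5 and 10.6 in MI vehicle mice and 16.6, 11.1 and 12.3 in MI prednisone mice. Ccl27a, known as an attractant in skin, was at 9.38, 7.32 and 7.90 TPM in sham vehicle mice, 8.88, 7.77 and 12.5 in sham prednisone mice, 10.7, 8.43 and 11.8 in MI vehicle mice and 12.1, 17.6 and 9.83 in MI prednisone mice. Cxcl14 was higher in sham prednisone than in sham vehicle mice without overlap, the other groups compared overlapped for both genes, and neither was called in the main analysis, with log2 changes after MI with prednisone against vehicle of -0.12 (95% confidence interval -0.57 to 0.32) and 0.30 (95% confidence interval -0.18 to 0.79).

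Ccl25, which brings Ccr9-bearing precursor cells into the thymus and gut, was at 1.65, 4.94 and 0.745 TPM in sham vehicle mice, 1.44, 1.90 and 1.02 in sham prednisone mice, 0.977, 1.39 and 98.1 in MI vehicle mice and 1.74, 2.19 and 1.56 in MI prednisone mice. Outside MI vehicle mouse 3 no value exceeded 4.94 TPM, and the log2 change of 1.36 with MI under vehicle had an adjusted p of 0.349 (limma). Ccl19, the other Ccr7 ligand, was at 27.1 TPM in that mouse and at most 3.03 TPM in the others. Cxcl17, a mucosal chemokine, was at 15.4 TPM in MI vehicle mouse 3, 18.1 TPM in MI prednisone mouse 2 and at most 1.87 TPM elsewhere, high in the pair of mice with the highest lung marker sums.

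Of the 18 signalling receptors, 6 were tested, and those of monocytes and macrophages carried the calls. Ccr2, the receptor of Ccl2, Ccl7 and Ccl12 on inflammatory monocytes, was at 2.09, 1.92 and 0.704 TPM in sham vehicle mice, 1.51, 0.699 and 1.78 in sham prednisone mice, 3.25, 4.78 and 5.91 in MI vehicle mice and 2.32, 2.08 and 1.35 in MI prednisone mice. MI vehicle mice lay above all others without overlap. Its log2 change was 1.15 (SE 0.28, adjusted p = 0.0262) with MI under vehicle and -0.94 (SE 0.28, adjusted p = 0.0248) with prednisone after MI, and each of these Ccr2 calls was lost in 13 of 25 alternatives. Ccr1, a receptor of Ccl9 and Ccl5, was at 0.711, 0.959 and 0.599 TPM in sham vehicle mice, 0.585, 0.562 and 0.902 in sham prednisone mice, 1.63, 2.19 and 1.73 in MI vehicle mice and 0.812, 0.345 and 0.353 in MI prednisone mice. MI vehicle mice again stood apart, and MI prednisone mice 2 and 3 had the lowest values of the series. Ccr1 reached 1 TPM only in the 3 MI vehicle mice, so it passed the filter only through the group where it was high. Its calls are not independent of that selection. Ccr1 changed by 0.70 (SE 0.19, adjusted p = 0.0333) with MI under vehicle and by -0.93 (SE 0.19, adjusted p = 0.00403) with prednisone after MI, calls that were lost in 13 and in 4 of 25 alternatives. The difference between the prednisone effects on Ccr1 was called, and lost in 16 of 24 alternatives.

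Cx3cr1, the receptor of Cx3cl1 on resident macrophages and patrolling monocytes, was at 1.34, 1.21 and 0.902 TPM in sham vehicle mice, 1.20, 0.588 and 2.03 in sham prednisone mice, 1.98, 7.12 and 4.39 in MI vehicle mice and 2.61, 1.80 and 1.37 in MI prednisone mice. Mice 2 and 3 of the MI vehicle group were highest, and mouse 1 was at the level of some prednisone mice. It rose with MI under vehicle by 1.24 (SE 0.34, adjusted p = 0.0377), and the change with prednisone after MI was -0.81 (SE 0.34, adjusted p = 0.081). The Cx3cr1 call was lost in 15 of 25 alternatives. Of 11 macrophage markers, 8 were called higher with MI under vehicle and 7 lower with prednisone after MI, beside 15.1% and 34.9% of all genes. Their sum was 178 to 253 TPM in sham mice, 333 to 503 TPM in MI vehicle mice and 183 to 334 TPM in MI prednisone mice. The movement was not particular to macrophages: all 7 fibroblast markers were called higher and all 7 lower in the same comparisons. Of 7 cardiomyocyte markers, 2 were called lower with MI under vehicle and 2 higher with prednisone after MI. Whether the receptor values follow macrophage number was not tested. Cxcr4, the receptor of Cxcl12, was at 3.48, 6.59 and 2.56 TPM in sham vehicle mice, 4.32, 4.24 and 4.31 in sham prednisone mice, 4.84, 8.63 and 56.8 in MI vehicle mice and 5.23, 5.04 and 5.85 in MI prednisone mice. Apart from MI vehicle mouse 3 the values ranged from 2.56 to 8.63 TPM, and no comparison was called. Cxcr5, a B cell receptor for Cxcl13, was at 6.89 TPM in that mouse and at most 1.14 TPM in the others.

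Of the 4 atypical receptors, 3 were tested. Ackr2, which scavenges inflammatory CC chemokines such as Ccl2 and Ccl5, was at 0.534, 0.825 and 0.862 TPM in sham vehicle mice, 1.11, 1.46 and 0.986 in sham prednisone mice, 2.12, 2.15 and 2.58 in MI vehicle mice and 1.08, 0.882 and 0.627 in MI prednisone mice. Prednisone mice lay above vehicle mice after sham surgery and below them after MI, in each case without overlap. The log2 change of Ackr2 was 0.92 (SE 0.17, adjusted p = 0.0113) with MI under vehicle, -0.82 (SE 0.17, adjusted p = 0.00453) with prednisone after MI and 0.33 (SE 0.17, adjusted p = 1) with prednisone after sham surgery. The difference between the prednisone effects was -1.15 (SE 0.24, adjusted p = 0.0115), was called in 20 of 23 alternatives and was lost with each form of length correction. Ackr4, which scavenges Ccl19, Ccl21 and Ccl25, was at 2.64, 3.07 and 2.79 TPM in sham vehicle mice, 2.27, 2.37 and 2.36 in sham prednisone mice, 3.52, 7.91 and 8.64 in MI vehicle mice and 3.75, 2.71 and 2.44 in MI prednisone mice. MI vehicle mice 2 and 3 stood far above the rest, and its changes of 0.93 with MI under vehicle and -0.89 with prednisone after MI were called (adjusted p = 0.035 and 0.0184, limma). Both Ackr4 calls were lost without MI vehicle mouse 3, and over 25 alternatives they were lost in 17 and in 11.

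Ackr3, which binds Cxcl12 and takes it up, was at 21.6, 22.5 and 19.2 TPM in sham vehicle mice, 25.3, 25.8 and 28.2 in sham prednisone mice, 24.6, 21.6 and 28.5 in MI vehicle mice and 24.8, 21.9 and 22.7 in MI prednisone mice. It was the most abundant receptor of the set on average, with sham prednisone mice above sham vehicle mice without overlap and no call. After MI the Ackr3 change with prednisone was -0.09 (95% confidence interval -0.36 to 0.17); after rescaling it was 0.35 and after length correction 0.41, both called higher by limma. Neither of these calls held without MI vehicle mouse 3. Ackr1, the Duffy receptor of venules and red cells, was under the filter and reached 2.31 TPM in MI vehicle mouse 3 and 1.15 TPM in MI vehicle mouse 1.

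The Cxcl12 sum holds transcripts whose estimated levels moved in opposite directions with prednisone after MI in the main analysis. The gene lies at chr6:117168535-117181367 on the plus strand (GRCm38, GENCODE M21) and has 3 coding transcripts that share their first 267 coding bases and differ in how they end: Cxcl12-202 (alpha form, 89 codons), Cxcl12-203 (beta form, 93 codons) and Cxcl12-201 (gamma form, 119 codons). The last 20 shared coding bases are printed in lower case and the end of each form, stop codon included, in capitals, since these ends are what tells the forms apart:
Cxcl12-202: tggagaaagctttaaacaagTAA
Cxcl12-203: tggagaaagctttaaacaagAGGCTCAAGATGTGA
Cxcl12-201: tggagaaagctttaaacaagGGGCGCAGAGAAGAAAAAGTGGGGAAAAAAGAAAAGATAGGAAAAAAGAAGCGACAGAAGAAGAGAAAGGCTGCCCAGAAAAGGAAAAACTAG
The gamma form is known for its strong binding to heparan sulfate.

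Cxcl12-203 was at 4.22, 2.97 and 3.35 TPM in sham vehicle mice, 2.41, 0.901 and 1.59 in sham prednisone mice, 2.57, 3.66 and 9.53 in MI vehicle mice and 15.0, 13.8 and 8.63 in MI prednisone mice. All 3 MI prednisone mice lay above all 6 sham mice, and mice 1 and 2 lay above every MI vehicle mouse. By limma over 27769 transcripts, Cxcl12-203 rose with MI under prednisone by a log2 change of 2.36 (SE 0.37, adjusted p = 0.00149) and with prednisone after MI by 1.23 (adjusted p = 0.0264). The first of these was called in all 21 alternatives, from 2.15 to 2.92. The second was called in 15 of 21, from 0.91 to 1.69, and was 1.69 without MI vehicle mouse 3. Its difference between MI and sham hearts was 2.04 (adjusted p = 0.0237).

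Cxcl12-201, the main form in sham hearts, was at 20.6, 23.2 and 24.8 TPM in sham vehicle mice, 23.0, 23.1 and 23.8 in sham prednisone mice, 22.3, 24.6 and 21.9 in MI vehicle mice and 8.61, 5.88 and 16.3 in MI prednisone mice. The first 3 groups overlapped and all MI prednisone mice lay below them. Cxcl12-201 fell by 1.22 on the log2 scale with MI under prednisone (adjusted p = 0.00678, limma) and by 1.19 with prednisone after MI (adjusted p = 0.00591). The latter was -0.77 after rescaling and -0.60 after length correction, neither past the threshold. Cxcl12-202 was at 7.79, 9.67 and 6.76 TPM in sham vehicle mice, 7.97, 7.13 and 7.08 in sham prednisone mice, 15.9, 18.2 and 43.4 in MI vehicle mice and 12.2, 8.39 and 6.17 in MI prednisone mice. MI vehicle mice exceeded all others, with mouse 3 far above, and the form rose with MI under vehicle by 1.44 (adjusted p = 0.0461, limma; not called in 18 of 21 alternatives) and fell with prednisone after MI by 1.34 on the log2 scale (adjusted p = 0.011).

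As shares of Cxcl12 TPM, the beta form made up 9.91% ± 2.31 (SD, n = 3) in sham mice given vehicle, 4.79% ± 2.07 in those given prednisone, 8.79% ± 3.36 in MI vehicle mice and 38.6% ± 10.7 in MI prednisone mice. The gamma form made up 64.0% ± 4.25, 69.1% ± 2.82, 44.5% ± 13.6 and 31.6% ± 16.6 in the same order, and the alpha form 22.6% ± 3.61, 21.9% ± 1.08, 44.4% ± 11.1 and 27.3% ± 7.39. These transcripts share part of their sequence and are 1878, 3132 and 5627 bases long for alpha, beta and gamma, so each value is an estimate that divides shared reads, and the part of uneven read coverage was not tested.

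**Figure D3:**
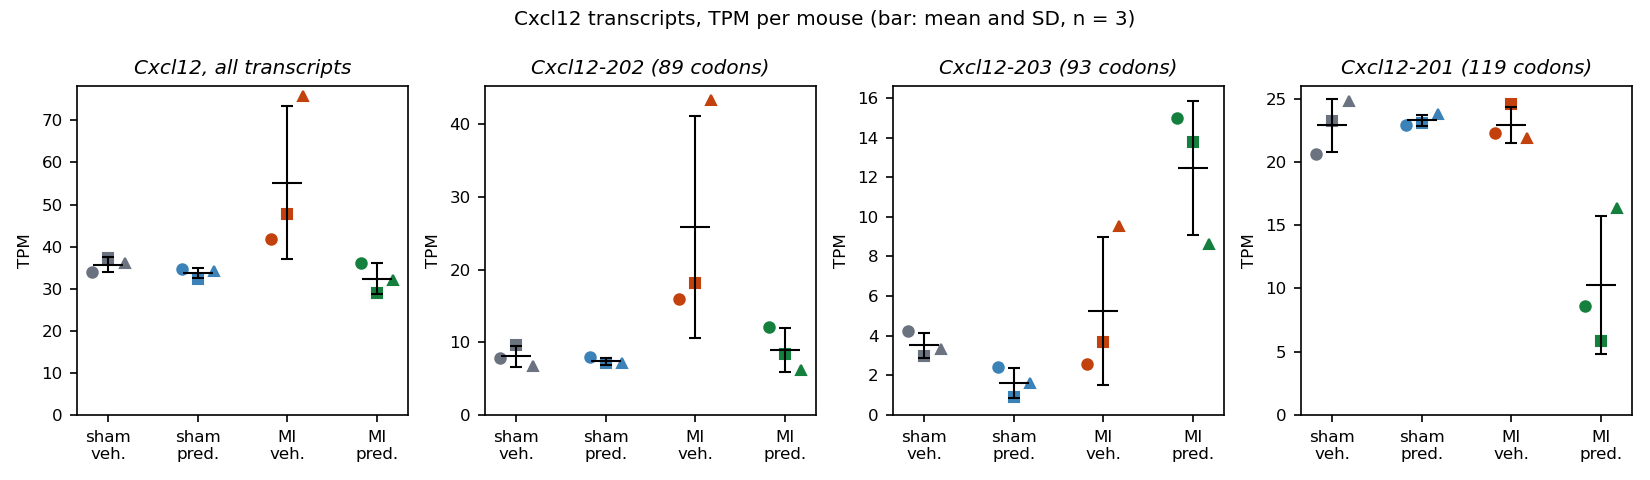
TPM per mouse for Cxcl12 summed over its transcripts and for its alpha (202), beta (203) and gamma (201) transcripts; markers are mice 1 to 3 and bars the mean and SD (n = 3). The beta form is highest in MI prednisone mice (8.63 to 15.0 TPM), in which the gamma form is lowest (5.88 to 16.3 TPM).

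At the level of single transcripts, 45 of the 173 member transcripts were tested. With MI under vehicle 9 were higher and 0 lower, against 2.66% of all transcripts higher and 0.184% lower. With prednisone after MI 2 were higher and 12 lower, against 5.92% higher and 27.1% lower; the pair that rose were Cxcl12-203 and a transcript of Ccl27a (log2 change 1.34, adjusted p = 0.0218, limma). With MI under prednisone 3 were higher and 1 lower (Cxcl12-201), against 6.75% and 15.6%, and the difference of prednisone effects was positive for 1 and negative for 5, against 2.87% and 15.8%. Without MI vehicle mouse 3 the counts were 1 transcript with MI under vehicle, and 1 higher and 10 lower with prednisone after MI. Of all 27769 transcripts, 105 and 7513 were called in these comparisons without that mouse.

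Ccl21c, which also passed the level of 5 TPM on average, was at 2.95, 17.5 and 15.1 TPM in sham vehicle mice, 0.651, 14.2 and 18.2 in sham prednisone mice, 47.1, 17.4 and 3.45 in MI vehicle mice and 23.9, 24.6 and 0.016 in MI prednisone mice. Its values ranged widely between mice of the same group. GENCODE M21 holds no gene under the symbol Ccl21c, so its sequence was not compared with that of Ccl21a. Ccl21a has near-identical copies, and reads of such copies can be divided among them in different ways. The copies lie on chromosome 4 in GRCm38 (GENCODE M21): Ccl21a at chr4:42772860-42773993 on the minus strand, Gm21541 at chr4:41903610-41904743 and Gm13304 at chr4:42114817-42115917 on the plus strand. Over 402 coding bases Gm21541 and Gm13304 each differ from Ccl21a by the same substitutions, T84A and C194T, with Ccl21a's base first and positions counted from the first coding base. Coding bases 54 to 203 are shown with the differing positions in capitals:
Ccl21a: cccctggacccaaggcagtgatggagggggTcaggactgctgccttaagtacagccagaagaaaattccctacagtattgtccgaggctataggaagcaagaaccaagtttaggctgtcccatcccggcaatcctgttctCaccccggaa
Gm21541: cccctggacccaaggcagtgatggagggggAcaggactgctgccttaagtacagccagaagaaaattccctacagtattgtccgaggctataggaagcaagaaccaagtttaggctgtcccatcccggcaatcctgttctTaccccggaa
Gm13304: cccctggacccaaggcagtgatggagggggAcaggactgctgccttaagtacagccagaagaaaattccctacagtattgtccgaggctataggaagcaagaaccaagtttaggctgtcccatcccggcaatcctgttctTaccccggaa
In sham vehicle mouse 1, Gm21541 was at 15.0 TPM and Ccl21c at 2.95 TPM, whereas in sham vehicle mouse 2 they were at 0.172 and 17.5 TPM. Gm13304 was at 10.98 to 22.5 TPM in the 3 MI prednisone mice and near 0 in all others. Ccl21c and the copies of Ccl21a together were steadier, between 14.4 and 18.3 TPM in the 6 sham mice, at 47.3, 56.1 and 61.0 TPM in MI vehicle mice and at 46.7, 35.9 and 22.7 TPM in MI prednisone mice. Their sum was 26.5% to 33.7% of all Ccl21 TPM in 11 mice and 17.0% in MI vehicle mouse 3. The values of single copies are therefore uncertain, and the pattern of the sum followed that of Ccl21a.

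**Figure D4:**
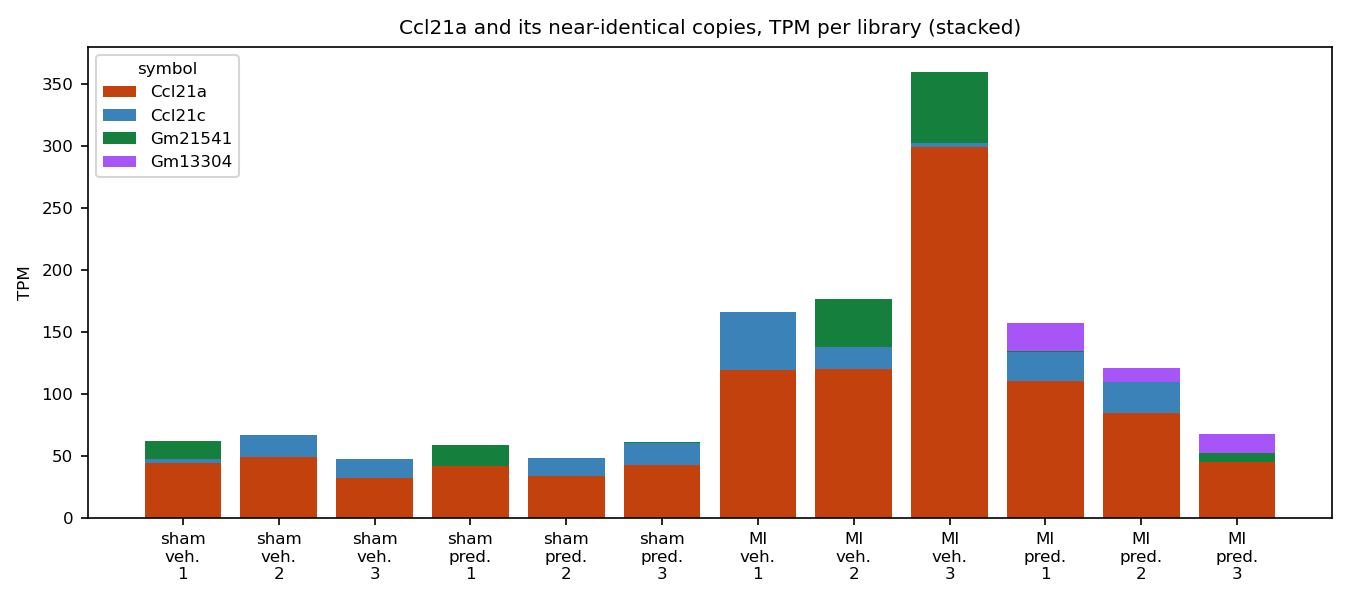
Stacked TPM of Ccl21a, its near-identical copies Gm21541 and Gm13304, and Ccl21c, whose sequence was not compared, in each of the 12 libraries. The symbol that holds the reads beside Ccl21a differs from mouse to mouse, while the whole stack is 47.4 to 66.5 TPM in sham mice and 166 to 360 TPM in MI vehicle mice.

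MI vehicle mouse 3 held many lymphoid chemokine genes that were near 0 elsewhere. In that library 14 of the 61 members were at 5 or more times the next highest library. Ccr9, the receptor of Ccl25 on thymocytes, was at 39.7 TPM there and at most 1.78 TPM in any other mouse. Ccr7, the receptor of Ccl19 and Ccl21 on naive T cells and mature dendritic cells, was at 10.8 against at most 0.942 TPM, Ccl22 at 7.61 against at most 0.562 TPM, and Ccr4, a receptor of Ccl17 and Ccl22, at 1.95 against at most 0.124 TPM. Of the 28 members under the filter, 19 had their highest value in that library, and 9 reached 1 TPM in it alone. A further 14 of the 28 never reached 1 TPM, and Ccl27b was listed at 0 throughout. Ccl3 and Ccl4, macrophage inflammatory proteins, reached at most 0.763 and 1.17 TPM, and the neutrophil attractants Cxcl2 and Cxcl5 at most 0.786 and 2.63 TPM. The lymphoid marker sums given above were highest in the same mouse; the part of other tissue in these values was not tested.

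**Figure D5:**
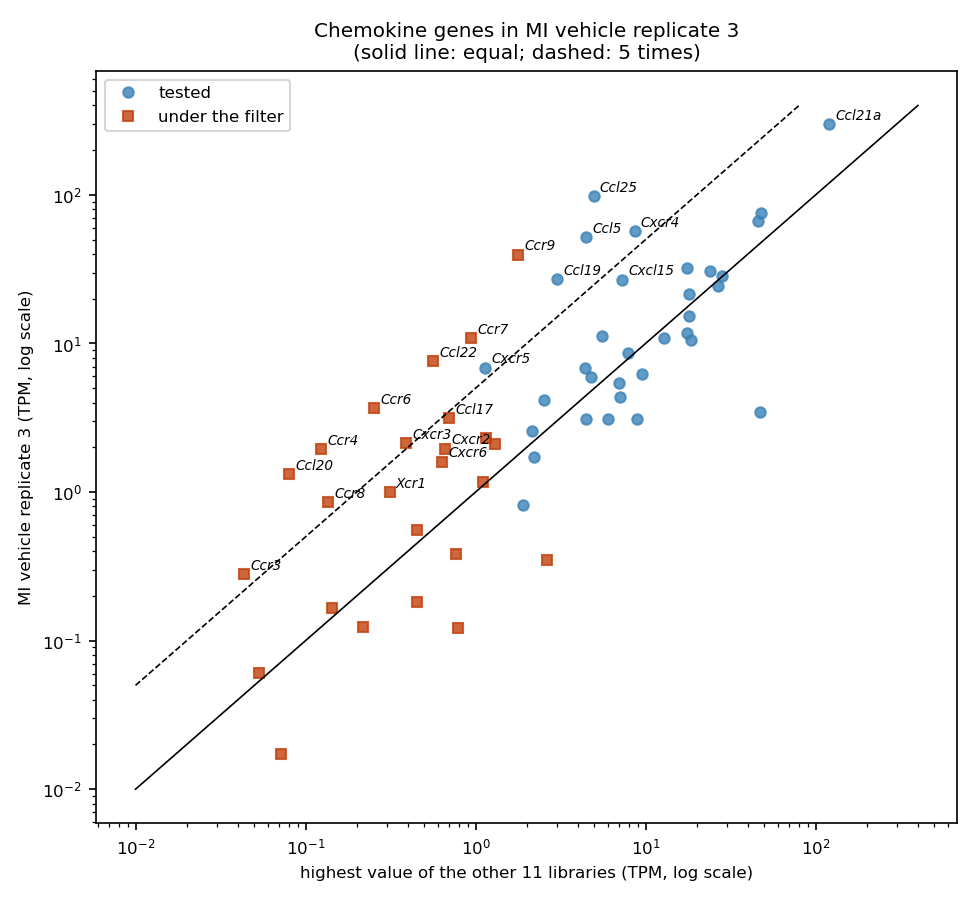
Level of 58 members in MI vehicle mouse 3 against their highest level in the other 11 libraries, both in TPM on log scales; 3 members under 0.01 TPM on an axis are not drawn, the solid line marks equal levels and the dashed line a ratio of 5. Points above the solid line are the 38 members highest in that mouse, and Ccr9, Ccl25, Ccl20 and Ccr4 lie farthest above the dashed line.

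Lists of genes that act with the chemokine system were counted in the same way, beside 15.1% of all genes called higher with MI under vehicle and 34.9% called lower with prednisone after MI. Of 24 tested genes for leukocyte migration, 7 were higher with MI under vehicle (median log2 change 1.14, against 0.39 for all genes) and 11 were lower with prednisone after MI (median -1.10, against -0.41). Itgb2 and Itgam, the chains of the Mac-1 integrin, changed by 1.75 and 1.13 with MI under vehicle and by -1.53 and -1.29 with prednisone after MI. Without MI vehicle mouse 3 the migration counts were 5 higher, and 2 higher with 10 lower, beside 7.34% and 31.6% of all genes called. Of 24 genes for G proteins, receptor kinases and arrestins, 8 were higher with MI under vehicle, Rgs10 (1.27) and Gnai3 (1.05) foremost, and 7 were lower and 1 higher with prednisone after MI. Of 22 regulators of the NF-kappaB and interferon pathways, 6 were higher with MI, among them Relb (1.05) and Bcl3 (0.99), and 6 were lower with prednisone after MI, among them Nfkbia (-0.99) and Stat3 (-0.92). Of 13 cytokines and receptors that induce chemokines, 6 were higher with MI and 10 lower with prednisone, led by Il33 (-1.92) and Il6st (-1.40). Of 7 relatives outside the symbol rule, 3 were higher with MI, namely Cmklr1 (0.77), Pf4 (0.73) and Mif (0.63), and 2 were lower with prednisone, Cmklr1 (-0.86) and Ccrl2 (-0.67). With prednisone after MI the shares called lower of the G protein, NF-kappaB and interferon, and relatives lists were below that of all genes. In sham hearts no gene of these 5 lists was called.

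Promoter windows of 250 bases before the start site (RefSeq, GRCm38.p6) were found for 45 of the 61 members, in 52 windows. An NF-kappaB motif of 10 bases, searched on both strands like the others, was in windows of 6 members (Ccl1, Ccr3, Cxcl1, Cxcl2, Cxcl3 and Cxcl10) and in 1.21% of 32851 windows of all genes. An interferon-stimulated response element of 10 bases was in windows of Ccl19, Cxcl10 and Cxcl14 and in 2.98% of all. A glucocorticoid response element of 14 bases was in 0 member windows and in 0.113% of all. Of the members called in any comparison that had a window, Cxcl10 alone held any of these motifs, and it held 2 of them. Ccl7 and Cxcl16 were among the called members without a window and were not searched. Its window, at chr5:92348890-92349139 on the minus strand, is shown 5′ to 3′ with the interferon and then the NF-kappaB match in capitals:
Cxcl10: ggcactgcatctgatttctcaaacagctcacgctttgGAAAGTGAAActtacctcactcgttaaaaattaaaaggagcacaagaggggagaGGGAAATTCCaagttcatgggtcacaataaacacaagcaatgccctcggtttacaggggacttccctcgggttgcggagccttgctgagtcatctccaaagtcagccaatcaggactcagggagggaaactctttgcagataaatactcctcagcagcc
A match describes the letters of the window and not the binding of a factor, which was not measured here.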

How the data were processed

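RNA of 12 hearts was sequenced from stranded mRNA libraries, per the labels' protocols. The authors deposited a table of TPM by transcript; the submitters' processing notes name Trimmomatic, HISAT2, kallisto and the build mm10, while versions, the annotation release and which program made the values are not given in the sources used here. Groups came from the sample titles. Transcripts were summed to 33641 gene symbols, genes that reached 1 TPM in 3 or more of the 12 libraries were kept, and log2(TPM + 1) was fitted with limma 3.58.1 in R 4.3.3 (eBayes with trend, 1 mean per group, all 12 libraries, Benjamini-Hochberg adjustment over all genes or all transcripts tested, threshold 0.05). Changes are on that scale, which understates those of low genes. P-values measure the spread between mice. The fit was tested on simulated data with independent noise for each gene. Those data had no library that stood apart and no shift of all genes, so the test does not cover these features.

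Members and lists were chosen with earlier results of these data known. Values of all 12 mice are given for members averaging at least 5 TPM or called in any comparison; other tested members get means or changes, untested ones counts and highest values, and list genes outside the family at most 4 values each, the largest changes called. Alternatives were median-ratio rescaling, no filter, no trend, pseudocounts of 0.1 and 0.5, a replicate block, only the groups compared, the most abundant transcript per gene, a loess correction (span 0.5) for transcript length over the 11894 tested genes with a length, and leaving out each mouse. Leaving out MI vehicle mouse 3 together with rescaling or length correction, leaving out 3 MI libraries, all alternatives for transcripts, and the lung epithelium and thymic cortex lists were chosen after seeing the data. The 6 thymic cortex genes summed to 226 TPM in MI vehicle mouse 3 and at most 10.1 TPM elsewhere. Gene and transcript models are from GENCODE M21, in which 94.7% of the table's rows had a length. 1 tested member is counted but not reported by name here.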

Additional observations from a re-analysis of the deposited data

Results flagged for a closer look

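The effect of prednisone differed between infarcted and sham hearts, by limma's test of the difference itself with Benjamini-Hochberg adjustment, for Ackr2 (log2 difference -1.15, adjusted p = 0.0115), Ccl9 (-1.50, adjusted p = 0.0165) and Ccr1 (-0.87, adjusted p = 0.0388). All 3 were called without MI vehicle mouse 3 as well. Ccr1 passed the filter only through the MI vehicle mice, a group that enters this difference. Over all alternatives the call was lost in 3 of 23 for Ackr2, 4 of 24 for Ccl9 and 16 of 24 for Ccr1, whose log2 difference ranged from -1.64 to -0.30 (adjusted p up to 0.66). By mouse, Ackr2 was higher in all sham prednisone than in all sham vehicle mice and lower in all MI prednisone than in all MI vehicle mice. That order restates the values behind the difference of -1.15 and adds no separate support, and the Ackr2 change in sham hearts was not called.

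Among single transcripts the difference was -1.69 for Ccl6-201, -0.98 for Ccl9-201, -1.69 for Ccl9-202, -0.996 for Cx3cl1-201, -1.22 for Cxcl12-201 and 2.04 for Cxcl12-203, the only positive one of the 6. Adjusted p-values (limma) were 0.00576, 0.0447, 0.0264, 0.0494, 0.04 and 0.0237 in that order. Of 20 alternatives, the difference was past the threshold in all 20 for Ccl6-201, 5 for Ccl9-201, 12 for Ccl9-202, 2 for Cx3cl1-201, 4 for Cxcl12-201 and 15 for Cxcl12-203.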

How the results depend on the processing

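Over 83 results and 1924 alternative values, 1332 kept direction and side of the threshold, 560 were no longer past it, 24 came past it and 8 reversed; the cause was not tested. For MI against sham with vehicle (14 members called), the count was 8 after rescaling, 8 with no filter, 9 with the replicate block, 0 with only the groups compared, 5 with length correction, 0 with length correction and the block, 3 with rescaling or with length correction once MI vehicle mouse 3 was out, and 0 to 18 leaving out 1 mouse. All genes lost calls too: 0.0152% of them were called with only the groups compared, 0.589% with length correction and the block, and 0.912% without sham vehicle mouse 3. For MI against sham with prednisone (2), it was 4 after rescaling, 0 with no filter, 1 with the replicate block, 0 with length correction, 0 with length correction and the block, 5 and 0 once that mouse was out, 4 with 3 libraries out, and 0 to 4 leaving out 1 mouse. For prednisone after MI (13), it was 6 after rescaling, 8 with no filter, 2 with only the groups compared, 4 with length correction, 3 with length correction and the block, 4 and 4 once that mouse was out, 0 with 3 libraries out, and 5 to 14 leaving out 1 mouse. With 3 libraries out, 1 MI prednisone mouse is left, assumed to vary like the other groups, and 22.6% of all genes were called; with only the groups compared 6.14% were. For prednisone in sham hearts it was 0 leaving out any mouse. For the difference of effects (3), it was 1 after rescaling, 0 with length correction, 1 with length correction and the block, 1 with length correction once that mouse was out, 1 with 3 libraries out, and 1 to 9 leaving out 1 mouse. For MI against sham with prednisone, 26% of all genes were called after rescaling, 7.25% with no filter and 12.9% with length correction. For the difference of effects, 10.1% were called after rescaling, 2.04% with length correction and 0.925% with length correction and the block. For transcripts, MI with vehicle (9) gave 1 after rescaling, 1 with no filter, 2 with the block, 0 with only the groups compared, 2 with length correction, 1 with the block added and 0 to 16 leaving out 1 mouse. All transcripts called were 126 of 27769 after rescaling, 0 with only the groups compared and 171 of 25434 with length correction. MI with prednisone (4 transcripts) gave 2 with no filter, 8 with length correction, 2 with the block added and 2 to 7 leaving out 1 mouse. There 4606 of all 84049 transcripts were called with no filter, 5897 of 25434 with length correction and 4983 with the block added. Prednisone after MI (14 transcripts) gave 7 after rescaling, 8 with no filter, 4 with only the groups compared, 6 with length correction, 6 with the block added and 7 to 18 leaving out 1 mouse. Of all transcripts, 7613 of 27769 were called after rescaling, 7153 of 84049 with no filter and 6102 of 25434 with length correction. With only the groups compared it was 4213 of 27769. The difference of effects (6 transcripts) gave 2, 1, 3 and 3 after rescaling, no filter, length correction and the block added to it, and 1 to 9 leaving out 1 mouse. Among all transcripts it was called for 3663 of 27769 after rescaling, 2784 of 84049 with no filter and 2807 of 25434 with length correction. The difference of effects reversed for Ackr3 (-0.41) to 0.12 after rescaling, 0.18 with length correction with or without the block, and 0.018 and 0.088 for rescaling and length correction once MI vehicle mouse 3 was out, and for Cxcl12 (-0.63) to 0.075 with length correction with or without the block, and 0.15 once that mouse was out. Mice with the same number in different groups did not deviate together on average (mean r between -0.37 and 0.003). With 3 mice a group this cannot tell whether a batch was shared, and the labels name none. TPM holds no depth, so what depth limits could not be given.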
